A study of Mus musculus with 10 samples.

Results

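Endoplasmic reticulum (ER) stress and the integrated stress response were read from 10 genes in inguinal white fat, the subcutaneous depot of the groin, of PexRAP-AKO and Control mice. The genes were taken from the deposited count table by their symbols, Hspa5, Hsp90b1, Xbp1, Dnajb9, Herpud1, Atf4, Atf3, Ddit3, Trib3 and Asns, with 1 row kept per gene identifier. All 10 were found among 40501 gene identifiers, and all 10 passed the filter on low counts, which left 14913 genes. The PexRAP-AKO group held 5 Cre-positive male mice with PexRAP deleted in adipose tissue (replicates 1, 2, 3, 5 and 6). The Control group held 5 Cre-negative male mice (replicates 2, 3, 5, 7 and 8). All were on a C57/BL6J background and chow-fed, with 1 RNA library per labelled sample. The labels give 8 weeks both as an age and as the time on chow, so the age at harvest is uncertain. PexRAP, encoded by Dhrs7b, is the reductase that makes the lipid precursor of ether phospholipids in the peroxisomal route, and the comparison asks what its loss in fat does to transcripts of the depot. Neither the Cre driver nor the deleted exons are stated in the labels, nor any relation between same-numbered mice.

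The unfolded protein response is the reaction of a cell to misfolded protein in the ER. The sensors IRE1, PERK and ATF6 sit in the ER membrane. IRE1 splices Xbp1 mRNA into the form that encodes an active factor, ATF6 is cut to release a factor that raises ER chaperones, and PERK phosphorylates the translation factor eIF2. The integrated stress response joins PERK with other eIF2 kinases that sense amino acid lack, haem lack or double-stranded RNA, and it favours translation of ATF4, which drives genes of amino acid supply and, through CHOP, of cell death. Adipocytes secrete adipokines and make much lipid at the ER membrane, whose phospholipid make-up is known to influence these sensors. The counts give total transcript per gene, so neither Xbp1 splicing nor eIF2 phosphorylation was measured.

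The control regions known for these genes are short and can be read in the promoters. RefSeq windows (GRCm38.p6, 250 bases before to 50 after the start site) were found for all 10 genes and searched on both strands. The ER stress element ERSE (CCAAT, any 9 bases, CCACG), bound by ATF6 with NF-Y, was matched in Hspa5 and Hsp90b1, against 0.119% of all 32851 windows. The shorter ERSE-II (ATTGG, any 1 base, CCACG) was matched in Herpud1, against 0.0365% of windows. The C/EBP-ATF composite element (TTGCATCA), a site type of ATF4 with C/EBP partners, was matched in Atf3 and Herpud1, against 0.895% of windows. Its wider core (TGATGNAA), which contains the other strand of the composite element, was matched in Asns, Atf3, Herpud1 and Trib3, against 3.97% of windows. The unfolded protein response element UPRE (TGACGTGG) was matched in 0 of the 10, against 0.676% of windows. The stretches below are shown because they carry these matches, in capitals, and Herpud1 carries both an ERSE-II and a composite element.
Hspa5 (chr2:34771930-34772089, plus strand): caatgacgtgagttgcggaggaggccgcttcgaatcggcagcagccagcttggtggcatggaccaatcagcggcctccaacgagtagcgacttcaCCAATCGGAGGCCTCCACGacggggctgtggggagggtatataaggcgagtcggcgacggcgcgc
Hsp90b1 (chr10:86705515-86705674, minus strand): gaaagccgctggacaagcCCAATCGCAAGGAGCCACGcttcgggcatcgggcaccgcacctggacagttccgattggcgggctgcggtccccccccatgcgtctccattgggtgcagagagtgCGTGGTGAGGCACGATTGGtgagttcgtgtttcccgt
Herpud1 (chr8:94386299-94386428, plus strand): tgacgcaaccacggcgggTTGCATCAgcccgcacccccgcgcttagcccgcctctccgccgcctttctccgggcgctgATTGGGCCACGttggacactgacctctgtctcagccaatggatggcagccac
Atf3 (chr1:191183404-191183463, minus strand): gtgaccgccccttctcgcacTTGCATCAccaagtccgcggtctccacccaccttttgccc
Asns (chr6:7693210-7693269, minus strand): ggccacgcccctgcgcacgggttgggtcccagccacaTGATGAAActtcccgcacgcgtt
A match says only that the letters are in the window. For Hspa5, Hsp90b1, Atf3 and Asns, the RefSeq start lies inside the longer GENCODE gene, deepest for Atf3.

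Libraries held 11274865 to 16513769 counts in PexRAP-AKO and 11593437 to 19881168 in Control, the deepest being Control replicates 3 and 5. Dhrs7b, which checks the labels, stood at 22.8, 19.05, 18.04, 21.8 and 17.9 CPM (counts per 1000000, TMM-scaled) in PexRAP-AKO replicates 1, 2, 3, 5 and 6, against 95.8, 61.2, 85.9, 86.0 and 83.2 CPM in Control replicates 2, 3, 5, 7 and 8. The groups did not overlap, with a log2 fold change of -2.05 (SE 0.12, edgeR quasi-likelihood test, adjusted p = 1.54e-05). Adipocyte markers were abundant in every library, with scores (the mean log2 CPM of 10 genes, among them Adipoq and Plin1) of 10.71 to 11.10 in PexRAP-AKO and 10.79 to 11.15 in Control. Brown adipocyte scores ran from 4.45 to 6.33 in PexRAP-AKO and from 3.40 to 6.05 in Control (exact two-sided permutation p = 0.143, adjusted p = 0.454 over 10 scores). Endothelial scores were 5.91 to 6.48 in PexRAP-AKO and 6.47 to 6.71 in Control (exact permutation p = 0.0159, adjusted p = 0.159), and the other marker scores had adjusted p of at least 0.317. Their part in the results below was not tested. Some fits hold a score as a covariate, but a score may itself shift with genotype, so score and genotype cannot be told apart there. In bulk tissue, fewer cells of a type and less RNA per cell cannot be told apart.

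No change of ER stress or integrated stress response transcripts was called in PexRAP-AKO fat. Of the 10 genes, 0 passed edgeR's quasi-likelihood test at an adjusted p of 0.05 and 0 passed in DESeq2, which gave no adjusted p for Atf3 and Trib3. Over all genes, edgeR called 0.101% and DESeq2 2.94%. At an unadjusted edgeR p under 0.05 there were 2 of 10, Dnajb9 higher and Herpud1 lower, where 15.5% of all genes stood (9.01% higher and 6.44% lower in PexRAP-AKO). The groups overlapped in CPM for each of the 10, whereas they did not overlap for 3.41% of all genes. The 10 fold changes split evenly, 5 positive and 5 negative, with a median log2 fold change of -0.0039 beside -0.0007 over all genes.

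**Figure D1:**
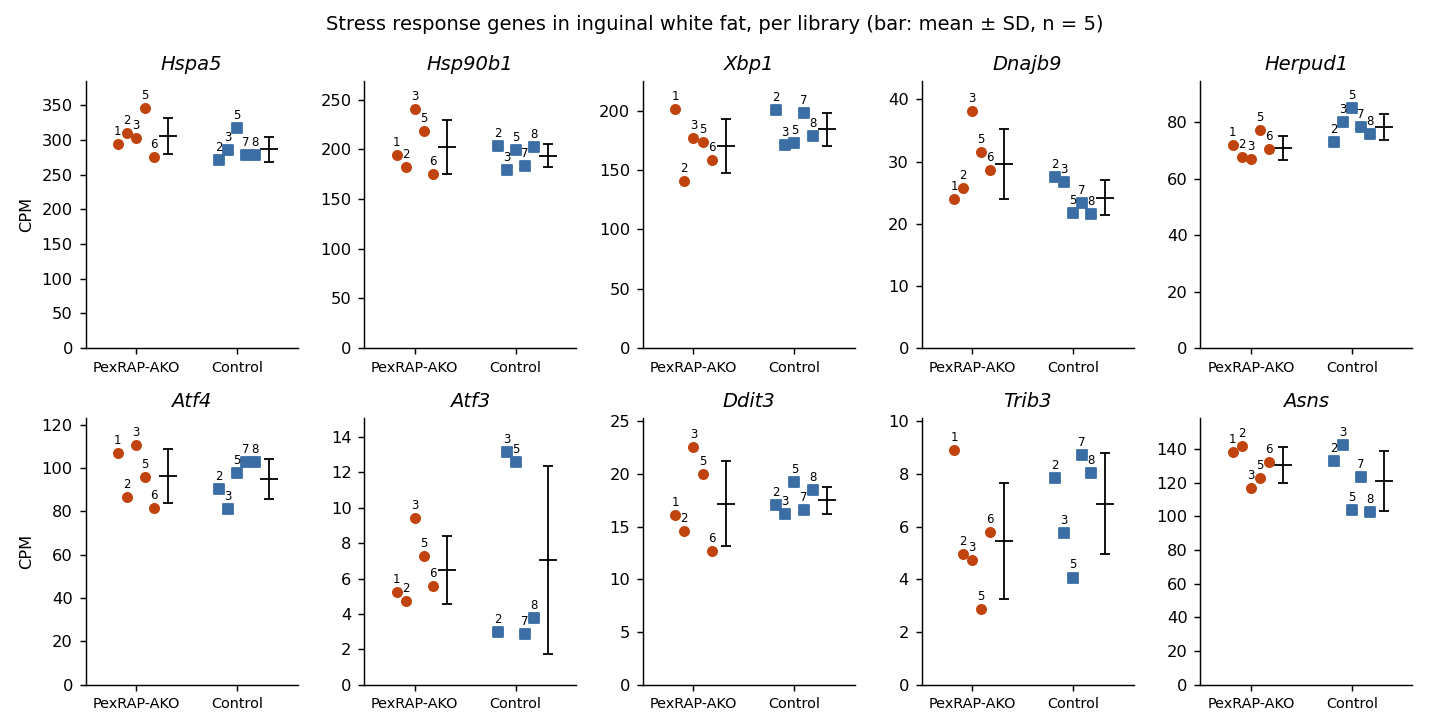
CPM of each of the 10 genes in every library (vertical axes, starting at 0), with PexRAP-AKO left of Control; numbers are the labelled replicates, and the bar is the mean ± SD of 5. The ranges of the groups overlap for each gene, and Control replicates 3 and 5 stand at 13.1 and 12.6 CPM for Atf3, above the other 8 libraries.

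The chaperones come first. Hspa5 (ENSMUSG00000026864, chromosome 2, 34771970 to 34777547, GRCm38) encodes BiP, the main Hsp70 chaperone of the ER lumen, which also holds the sensors inactive. It stood at 294.8, 310.7, 303.1, 346.2 and 276.1 CPM in PexRAP-AKO replicates 1, 2, 3, 5 and 6, against 270.7, 286.0, 317.6, 278.7 and 279.1 CPM in Control replicates 2, 3, 5, 7 and 8. PexRAP-AKO replicate 5 and Control replicate 5 were the highest of their groups, and the other 4 PexRAP-AKO libraries lay inside the Control range. The fold was 1.07 with a 95% interval of 0.953 to 1.20 (log2 fold change 0.10, SE 0.08, edgeR adjusted p = 0.580). Hsp90b1 (ENSMUSG00000020048, chromosome 10, 86690209 to 86705509) encodes GRP94, the Hsp90 of the ER. It stood at 194.5, 182.1, 241.0, 218.5 and 175.3 CPM in PexRAP-AKO, against 203.2, 179.2, 199.4, 183.6 and 202.8 CPM in Control, in the same order of replicates. PexRAP-AKO libraries held both the lowest and the highest value, with an SD of 27.2 CPM against 11.4 CPM in Control. The log2 fold change was 0.06 (SE 0.09, edgeR adjusted p = 0.786), and it was -0.0077 without PexRAP-AKO replicate 3 and -0.0085 under scaling by total counts. Exons of Hsp90b1 overlap 1810014B01Rik on the other strand and Gm15344 on its own, which held 349 and 133 counts over all 10 libraries, against at least 2257 counts of Hsp90b1 in each.

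Xbp1 (ENSMUSG00000020484, chromosome 11, 5520659 to 5525893) encodes the factor that IRE1 activates by splicing. It stood at 201.4, 140.5, 176.8, 173.3 and 158.5 CPM in PexRAP-AKO, against 200.8, 171.1, 172.8, 197.8 and 178.8 CPM in Control. PexRAP-AKO replicates 2 and 6 were below every Control library, while PexRAP-AKO replicate 1 was the highest of the 10. The log2 fold change was -0.12 (SE 0.09, 95% interval -0.32 to 0.09, edgeR adjusted p = 0.590). Plasma cells are rich in Xbp1, so B and plasma cell markers were read beside it. Their score was 0.65 to 3.10 in PexRAP-AKO and 0.41 to 2.59 in Control, and no relation to Xbp1 was detected over the 10 libraries (Pearson r = -0.22, permutation p = 0.544, Spearman rho = 0.07, permutation p = 0.866, adjusted p = 0.687 and 0.866 over 9 relations). Without the 2 libraries farthest from the median score, r was -0.01.

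Dnajb9 and Herpud1, both known targets of the response that act in the disposal of misfolded protein, leaned in opposite directions. Dnajb9 (ENSMUSG00000014905, chromosome 12, 44205559 to 44210326) encodes ERdj4, a BiP co-chaperone that keeps IRE1 off. It stood at 24.0, 25.7, 38.2, 31.5 and 28.7 CPM in PexRAP-AKO, against 27.6, 26.7, 21.7, 23.3 and 21.6 CPM in Control. Of the PexRAP-AKO libraries, replicates 3, 5 and 6 exceeded every Control library while 1 and 2 lay among them. The fold was 1.22 with a 95% interval of 1.01 to 1.48 (log2 fold change 0.29, SE 0.13, unadjusted p = 0.0380, adjusted p = 0.296, edgeR), and the exact permutation p was 0.0714. Herpud1 (ENSMUSG00000031770, chromosome 8, 94386438 to 94395377) encodes the ER membrane protein HERP of the degradation complex. It stood at 71.9, 67.5, 67.0, 77.4 and 70.4 CPM in PexRAP-AKO, against 72.8, 80.1, 85.0, 78.3 and 75.7 CPM in Control. Of the PexRAP-AKO libraries, all but replicate 5 were below every Control library. The fold was 0.903 with a 95% interval of 0.826 to 0.987 (log2 fold change -0.15, SE 0.06, unadjusted p = 0.0282, adjusted p = 0.261, edgeR), and the exact permutation p was 0.0317. Herpud1 varied little within groups, 1.15-fold between the lowest and highest PexRAP-AKO library and 1.17-fold in Control.

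In the integrated stress response arm, Atf4 (ENSMUSG00000042406, chromosome 15, 80255184 to 80257541) is the central transcription factor, controlled mainly at translation. It stood at 107.0, 86.7, 110.5, 95.7 and 81.7 CPM in PexRAP-AKO, against 90.3, 81.2, 97.7, 102.6 and 102.9 CPM in Control. The groups covered almost the same range, with a fold of 1.01 and a 95% interval of 0.878 to 1.17 (edgeR adjusted p = 0.938). Ddit3 (ENSMUSG00000025408, chromosome 10, 127290774 to 127296288) encodes CHOP, the factor tied to cell death under lasting stress. It stood at 16.1, 14.6, 22.5, 19.95 and 12.7 CPM in PexRAP-AKO, against 17.01, 16.2, 19.2, 16.6 and 18.5 CPM in Control. The Control values lay inside the PexRAP-AKO range, and the fold was 0.980 with a 95% interval of 0.792 to 1.21 (edgeR adjusted p = 0.943). The end of Ddit3 overlaps exons of Mars on the other strand, and with strand not stated for the counting, reads there cannot be assigned with certainty. Its exons also overlap Gm4189 on the other strand, which held 48 counts over all 10 libraries. On its own strand they overlap another entry named Ddit3 (ENSMUSG00000116429), which is not among the counted identifiers. The fold changes of Atf4 (0.02) and Ddit3 (-0.03) changed sign under 5 and 7 of 25 alternatives, scaling by total counts among them for Atf4 (-0.051).

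Atf3 (ENSMUSG00000026628, chromosome 1, 191170296 to 191218039) is both an ATF4 target and an immediate early gene of handling or injury. It stood at 5.26, 4.75, 9.44, 7.28 and 5.58 CPM in PexRAP-AKO, against 2.98, 13.1, 12.6, 2.85 and 3.78 CPM in Control. The Control libraries lay on both sides of the PexRAP-AKO range, replicates 3 and 5 above it and 2, 7 and 8 below it, so the spread was 4.62-fold in Control and 1.99-fold in PexRAP-AKO. The log2 fold change was -0.17 with a 95% interval of -1.21 to 0.87 (SE 0.47, edgeR adjusted p = 0.900), and it was 0.18 without Control replicate 3, 0.14 without Control replicate 5, 0.28 with the immediate early score as a covariate and 0.25 with sample quality weights. The 2 high libraries were the 2 deepest, at 19881168 and 18787394 counts, and Control replicate 3 also had the highest immediate early score (14 genes such as Fos and Jun), 4.60, with Control replicate 5 at 4.14. PexRAP-AKO replicates 3 and 6 scored close to Control replicate 5, at 4.13 and 4.07. Over the 10 libraries Atf3 was related to the immediate early score (Pearson r = 0.62, permutation p = 0.0575, Spearman rho = 0.73, permutation p = 0.0200). Neither passed adjustment over 9 relations (0.259 and 0.0901), and r was 0.19 without the 2 libraries farthest from the median score. Within PexRAP-AKO r was 0.11, and within Control 0.805 (n = 5 each). The part of depth or handling in Atf3 was not tested.

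Trib3 (ENSMUSG00000032715, chromosome 2, 152337422 to 152344032) encodes a pseudokinase that binds AKT and damps ATF4 and CHOP. It stood at 8.90, 4.94, 4.72, 2.88 and 5.79 CPM in PexRAP-AKO, against 7.82, 5.74, 4.07, 8.70 and 8.03 CPM in Control. It had the lowest mean CPM of the 10 in both groups, at 32 to 114 counts per library, and high and low libraries occurred in both groups. The log2 fold change was -0.32 with a 95% interval of -0.94 to 0.30 (SE 0.28, edgeR adjusted p = 0.625). Trib3 was lower in the libraries with more brown adipocyte marker transcript, in both groups. Over the 10 libraries Trib3 and the brown adipocyte score (14 genes, Ucp1 and Cidea among them, 12 with a positive and 2 with a negative log2 fold change) were related with Pearson r = -0.86 (permutation p = 0.00128, adjusted p = 0.0115 over 9 relations) and Spearman rho = -0.90 (permutation p = 0.00093, adjusted p = 0.00837). The marker lists were chosen with earlier results of these data known, and the adjustment over 9 relations does not cover that choice. Without the 2 libraries farthest from the median score, Control replicates 7 and 8, r was -0.91 (permutation p = 0.00204). The score was 4.45, 5.63, 6.33, 6.28 and 5.62 in PexRAP-AKO, against 4.95, 5.27, 6.05, 3.67 and 3.40 in Control. The libraries with the lowest scores, Control replicates 8 and 7 and PexRAP-AKO replicate 1, held the 3 highest Trib3 levels. With the score as a covariate the Trib3 log2 fold change was 0.10 in place of -0.32 (edgeR adjusted p = 0.917 in place of 0.625, and 0.277 to 0.917 over 24 alternatives).

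**Figure D2:**
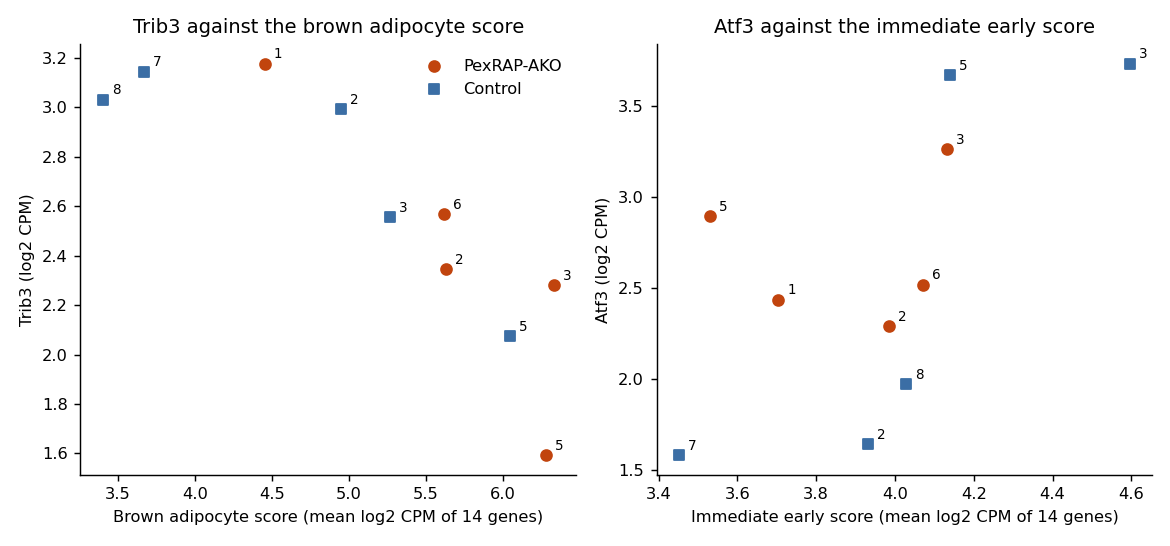
Left, Trib3 (log2 CPM) against the brown adipocyte score in the 10 libraries, and right, Atf3 (log2 CPM) against the immediate early score, with circles for PexRAP-AKO and squares for Control and labelled replicate numbers. Trib3 declines along the score in both groups (r = -0.86), while for Atf3 Control replicates 3 and 5 stand highest.

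Tried against the brown adipocyte score in turn, a family of 10 relations chosen after the data were seen, Trib3 was the only one of the 10 genes to pass (adjusted permutation p = 0.0143 for r and 0.0086 for rho). The share of all tested genes that would pass against this score was not tested, so the relation cannot be called particular to Trib3. Hspa5 (r = 0.65), Dnajb9 (r = 0.66) and Atf3 (r = 0.68) had the opposite sign, each with an adjusted permutation p of 0.105 for r and, at a rho of 0.66 each, 0.110 for rho. Without Control replicates 7 and 8 their r was 0.63, 0.50 and 0.49. With the score as a covariate the log2 fold changes of Hspa5 and Dnajb9 were 0.03 and 0.16, and that of Herpud1 was -0.18. Atf3 was at -0.65 in that fit (edgeR adjusted p = 0.648), against -0.17 without the score.

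Asns (ENSMUSG00000029752, chromosome 6, 7675169 to 7693254) encodes asparagine synthetase, a classical ATF4 target of amino acid lack. It stood at 138.4, 142.1, 116.9, 122.8 and 132.1 CPM in PexRAP-AKO, against 132.9, 142.2, 103.8, 123.6 and 102.4 CPM in Control. The highest values of the groups were equal to within 1 CPM, and the lowest 2 libraries were both Control. The fold was 1.08 with a 95% interval of 0.929 to 1.25 (log2 fold change 0.11, SE 0.10, edgeR adjusted p = 0.634). Across the 10 libraries its relation to Atf4 did not pass (r = -0.54, permutation p = 0.110, adjusted p = 0.331, rho = -0.59, permutation p = 0.0802, adjusted p = 0.241 over 9 relations), and r was -0.38 without the 2 libraries farthest from the median.

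**Figure D3:**
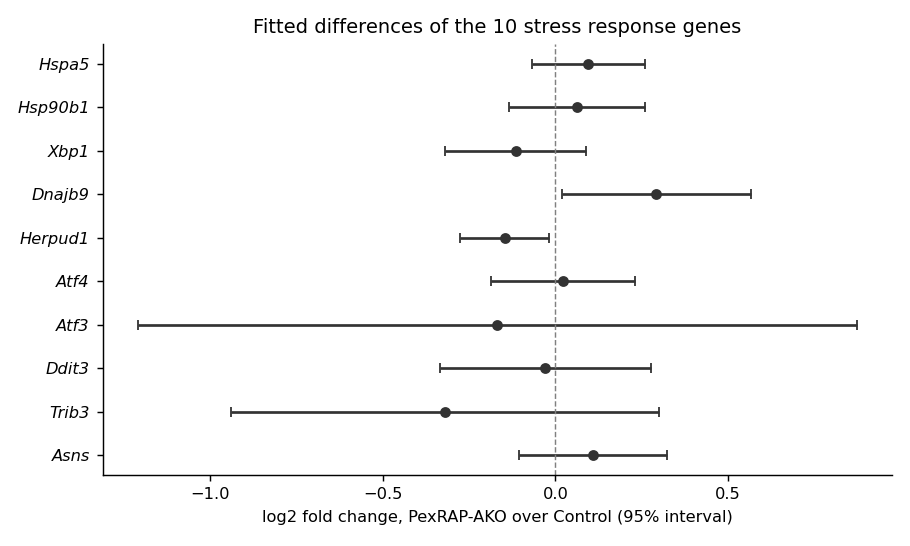
Log2 fold change of PexRAP-AKO over Control for each of the 10 genes (horizontal axis), with points for edgeR's estimate and bars for its 95% interval, not adjusted for multiple tests. The intervals of Dnajb9 and Herpud1 lie on opposite sides of 0, those of the other 8 span it, and Atf3 has the widest.

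Levels were compared between genes per kilobase of exon. In PexRAP-AKO they ran from 72.4 ± 6.10 CPM per kilobase for Hspa5 to 2.56 ± 1.04 for Trib3, and in Control from 67.7 ± 4.32 for Hspa5 to 3.23 ± 0.90 for Trib3 (SD, n = 5 each). Below Hspa5 came Xbp1, Hsp90b1, Asns, Atf4 and Herpud1 in both groups, at 52.4, 50.2, 47.7, 40.9 and 30.4 CPM per kilobase in PexRAP-AKO and 56.7, 48.0, 44.2, 40.3 and 33.6 in Control. Dnajb9 and Ddit3, at 11.6 and 10.03 in PexRAP-AKO and 9.49 and 10.2 in Control, changed places between the groups with overlapping ranges. Hspa5 stood clear of its neighbour in both groups, while Hsp90b1 and Asns, Asns and Atf4, Dnajb9 and Ddit3, and Atf3 and Trib3 overlapped in both. The exon lengths are GENCODE M21's and not those of the transcripts made in this fat, so small differences of level are uncertain.

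Between mice, pairs of the 10 genes were related in both directions. Over all 45 pairs of log2 CPM, 25 had a positive and 20 a negative Pearson r, with a median of 0.16 and a median absolute r of 0.31. The ER group (Hspa5, Hsp90b1, Xbp1, Dnajb9 and Herpud1) had a median of 0.20 over 10 pairs, and the ATF4 group a median of -0.12. Hspa5 and Hsp90b1, which share the ERSE, were related at r = 0.43 (permutation p = 0.219, rho = 0.31, permutation p = 0.387, adjusted p = 0.493 and 0.580 over 9 relations), and r was 0.25 without the 2 libraries farthest from the median. Of the 45 pairs, all tried after the data were seen, 2 passed an adjusted permutation p of 0.05 by Pearson r. The share of all gene pairs that would reach such values was not tested, so these relations cannot be called particular to the 10 genes. Hsp90b1 and Ddit3 were related positively (r = 0.90, permutation p = 0.00026, adjusted p = 0.0117, rho = 0.89, permutation p = 0.00096, adjusted p = 0.0432), with r = 0.82 without the 2 farthest libraries. Both were highest in PexRAP-AKO replicate 3 and lowest in PexRAP-AKO replicate 6. Hspa5 and Trib3 were related negatively (r = -0.85, permutation p = 0.00199, adjusted p = 0.0448), but rho did not pass (-0.71, permutation p = 0.0268, adjusted p = 0.402), and r was -0.58 without PexRAP-AKO replicate 5 and Control replicate 5 (permutation p = 0.134).

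**Figure D4:**
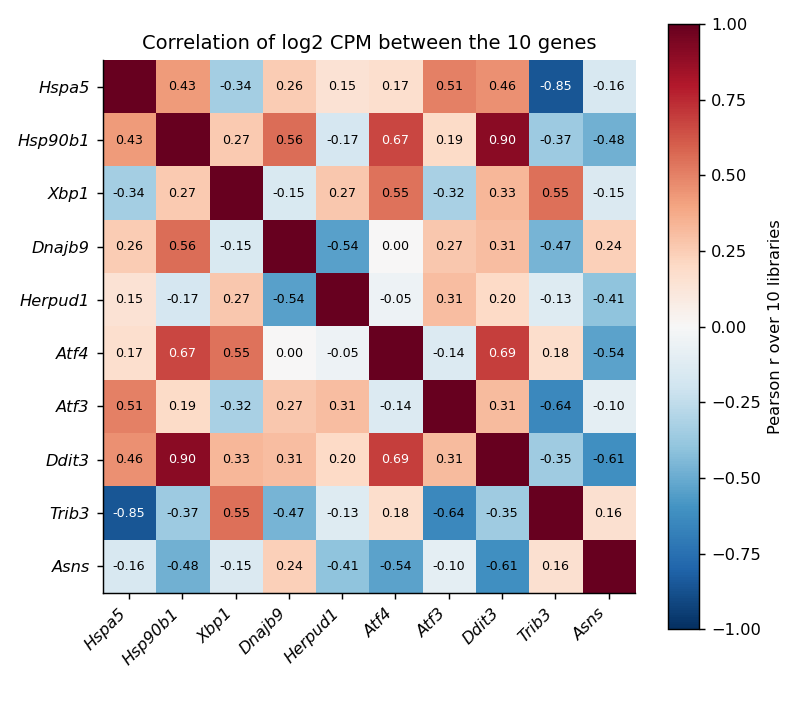
Pearson r of log2 CPM over the 10 libraries for each pair of the 10 genes, blue for negative and red for positive. Hsp90b1 with Ddit3 (0.90) and Hspa5 with Trib3 (-0.85) are the extremes, and 25 of 45 pairs are positive.

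Among all tested genes with a mean of at least 1 CPM, those closest to Hspa5 over the 10 libraries were Uqcc2 (r = 0.95), S100a13 (0.93), Rpl36al, Arf1 and Eef1akmt1 (0.91, 0.91 and 0.90). Those closest to Asns were Adig (0.96), Aco1, Iars2, Mfn2 and Smyd2 (0.94 each). The likeness is the extreme of many genes over 10 libraries and is given as a description, and edgeR called 0 of these 10 genes between the groups (adjusted p = 0.185 to 0.844, and 0 by DESeq2, with 3 at an unadjusted p under 0.05, beside 15.5% of all genes).

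In the wider pathway, edgeR called 0 genes in any of 10 lists, which hold the 10 genes too. DESeq2 called 5 of the 145 tested genes in them, 3.45%, close to the 2.94% it called of all genes. Single genes named below had the smallest p of their lists. Where their groups are said not to overlap, the same held for 3.41% of all genes. Of 18 ER chaperones and folding enzymes, 0 were called and 0 stood at an unadjusted p under 0.05, and their log2 fold changes ran from -0.13 to 0.19 with a median of 0.00. Pdia4, a disulphide isomerase, was at 108.0 ± 9.53 CPM in PexRAP-AKO and 118.05 ± 8.10 CPM in Control, Manf, a secreted ER stress protein, at 27.7 ± 5.75 and 24.2 ± 2.19 CPM, and Ero1l, the ER oxidase, at 21.96 ± 0.81 and 20.8 ± 1.07 CPM (SD, n = 5 each). Of 18 genes of ER-associated degradation, 0 were called, with a median of -0.01. Nploc4, a cofactor of the p97 segregase, was at 109.1 ± 5.89 CPM in PexRAP-AKO and 97.9 ± 3.39 CPM in Control (unadjusted p = 0.0117, adjusted p = 0.206, edgeR). Derl2 (0.10) and Vcp (0.15), the p97 segregase itself, had adjusted p of 0.354 and 0.367 in edgeR.

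Among 12 sensors and transcription factors, 0 were called by edgeR, the median log2 fold change was -0.06, and 3 stood lower at an unadjusted p under 0.05, where 6.44% of all genes did. Ern1, which encodes IRE1, was at 39.3, 40.2, 38.8, 39.9 and 38.0 CPM in PexRAP-AKO, against 41.7, 43.9, 46.9, 40.3 and 43.3 CPM in Control. Its groups did not overlap, though PexRAP-AKO replicate 2 and Control replicate 7 were nearly equal (log2 fold change -0.14, SE 0.05, edgeR adjusted p = 0.248). Creb3l2, an ATF6-like factor of the secretory pathway, was at 47.8 ± 3.87 CPM in PexRAP-AKO and 57.2 ± 4.44 CPM in Control (log2 fold change -0.26, edgeR adjusted p = 0.163, DESeq2 adjusted p = 0.0480). Mbtps2, the protease that releases ATF6 and also the sterol factor SREBP, was at -0.15 (edgeR adjusted p = 0.316).

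Of 14 eIF2 kinases, phosphatase subunits and exchange factor genes, 0 were called by edgeR, with a median of 0.06. Eif2s1, which encodes the eIF2 subunit that the stress kinases phosphorylate, was at 40.8, 41.5, 44.2, 44.7 and 39.3 CPM in PexRAP-AKO, against 36.5, 35.4, 34.6, 36.6 and 36.8 CPM in Control. Every PexRAP-AKO library was above every Control library, with a fold of 1.17 and a 95% interval of 1.08 to 1.27 (log2 fold change 0.23, SE 0.05), and edgeR's adjusted p was 0.120 while DESeq2's was 0.0197. Eif2b4, of the exchange factor, was at 0.18 and Impact, an inhibitor of the kinase GCN2, at 0.17 (edgeR adjusted p = 0.290 and 0.355).

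Of 14 tested genes of the ATF4 and CHOP axis, 4 of them among the 10, 0 were called, with 5 positive, 9 negative and a median of -0.10. That median was -0.0057 with the brown adipocyte score in the fit and -0.019 without Control replicate 5. Vldlr, a lipoprotein receptor and ATF4 target, was at 260.0 ± 31.0 CPM in PexRAP-AKO and 204.6 ± 32.2 CPM in Control (log2 fold change 0.35, edgeR adjusted p = 0.211). Cebpg (-0.18), which encodes an ATF4 partner, and Atf5 (-0.13) leaned lower, each at an adjusted p of 0.304 in edgeR. The stress hormones Fgf21 and Gdf15 did not pass the filter on low counts. Fgf21 was at 0.195 to 0.761 CPM in PexRAP-AKO and 0.101 to 0.765 CPM in Control, and Gdf15 at 0.353 to 1.295 CPM in PexRAP-AKO and 0.562 to 2.11 CPM in Control. Both were chosen after their values were seen. Of 19 tested genes of ATF4-driven amino acid synthesis and transport, 0 were called, with 10 positive, 9 negative and a median of 0.01. Psph, the last enzyme of serine synthesis, was at 17.1, 25.4, 20.5, 22.6 and 17.7 CPM in PexRAP-AKO, against 12.8, 17.97, 15.6, 14.2 and 12.2 CPM in Control. Of the Control libraries, replicate 3 alone reached into the PexRAP-AKO range (log2 fold change 0.50, SE 0.13, edgeR adjusted p = 0.148, DESeq2 adjusted p = 0.0273). The subunits of an amino acid exchanger, Slc7a5 (0.41) and Slc3a2 (-0.13), had opposite signs and edgeR adjusted p of 0.320 and 0.342.

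Of 17 tested cytosolic aminoacyl-tRNA synthetases, which ATF4 also drives, 0 were called by edgeR, 13 were positive and the median was 0.01 (0.04 with the brown adipocyte score in the fit). Gars was at 125.9 ± 7.10 CPM in PexRAP-AKO and 110.7 ± 6.34 CPM in Control, and Aars at 124.8 ± 3.97 and 114.3 ± 1.63 CPM (SD, n = 5 each). Neither gene's groups overlapped, at folds of 1.14 and 1.09 (edgeR adjusted p = 0.190 and 0.224, DESeq2 adjusted p for Aars 0.0483), and Hars was at 0.15 (0.330 in edgeR). Of 10 genes of the mitochondrial unfolded protein response, the matching reaction of that organelle, 0 were called by edgeR, 9 were positive and 4 stood at an unadjusted p under 0.05, with a median of 0.19. Of all genes, 15.5% stood there (9.01% higher). With that brown adipocyte score in the fit, the list's median was 0.14, and the log2 fold changes of Clpp, Hspd1 and Hspe1 were 0.16, 0.13 and 0.14 (edgeR adjusted p = 0.515, 0.587 and 0.624). Clpp, the matrix protease, was at 59.7, 68.9, 64.1, 64.9 and 62.9 CPM in PexRAP-AKO, against 56.0, 59.6, 56.1, 50.5 and 47.8 CPM in Control (log2 fold change 0.25, edgeR adjusted p = 0.154, DESeq2 adjusted p = 0.0392). The groups met but did not overlap, at PexRAP-AKO replicate 1 and Control replicate 3. The partner chaperonins Hspd1 (0.30) and Hspe1 (0.37) had edgeR adjusted p of 0.213 and 0.225.

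Of 11 cytosolic heat shock genes, 0 were called by edgeR, with a median of 0.08. Hsp90aa1 (0.20), Dnajb1 (0.15) and Hspa8 (0.18) had edgeR adjusted p of 0.226, 0.237 and 0.396. Of 14 immediate early genes, 0 were called and 10 were negative, with a median of -0.23. Jun was at 49.7 ± 6.61 CPM in PexRAP-AKO and 62.5 ± 8.39 CPM in Control (edgeR adjusted p = 0.201), and Junb (-0.31) and Zfp36 (-0.22) followed (0.416 and 0.479). Immediate early scores were 3.53 to 4.13 in PexRAP-AKO and 3.45 to 4.60 in Control (exact permutation p = 0.571, adjusted p = 0.714 over 10 scores).

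**Figure D5:**
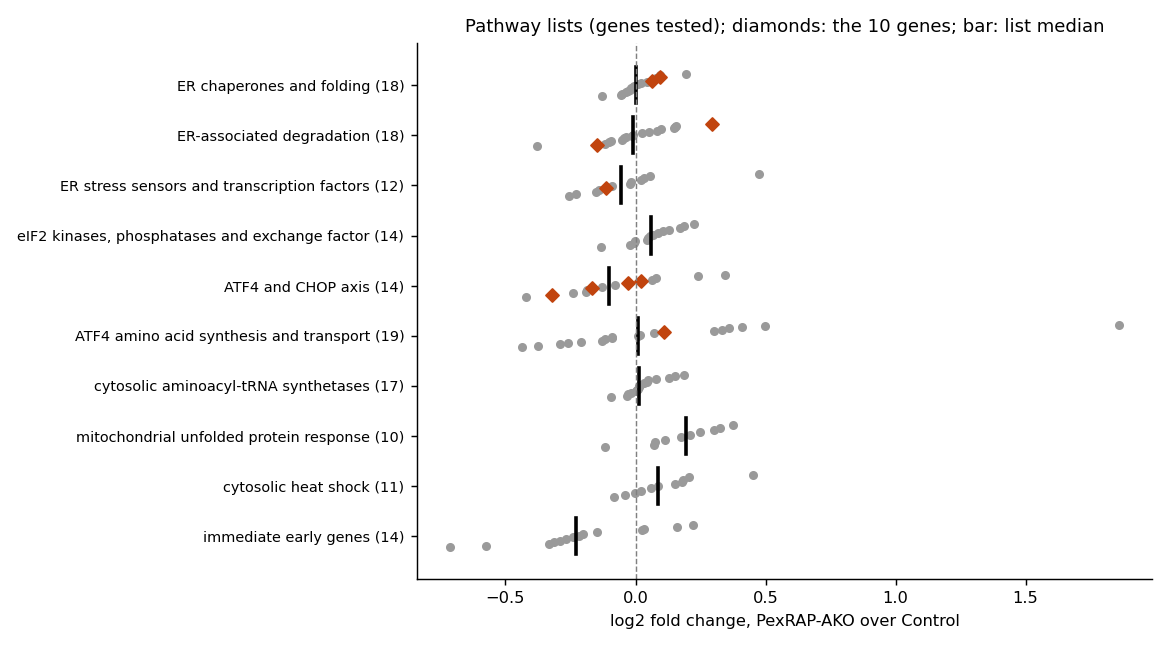
Log2 fold change of PexRAP-AKO over Control (horizontal axis) for the tested genes of 10 pathway lists, 1 point per gene, with diamonds for the 10 genes and a bar for the list median; the number tested stands beside each name. The ER chaperone list has a median of 0.00, the mitochondrial list has a median of 0.19 and the immediate early list one of -0.23; the far point among the amino acid genes is Slc7a11 at 1.86 (SE 0.91, edgeR adjusted p = 0.359).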

How the data were processed

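RNA was sequenced from inguinal white fat in 10 libraries, 5 per group. The deposited table gives raw counts of reads per gene with no normalization by the authors. The submitters' processing notes name STAR 2.0.4b, Subread, featureCounts and edgeR, without strand setting or annotation. Of 40724 rows, 117 gene identifiers stood in several rows of equal counts and were kept once. Coordinates and exon lengths come from GENCODE M21 (GRCm38), which held 99.6% of the identifiers, and promoter sequences from RefSeq (GRCm38.p6).

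Counts were scaled by TMM and filtered with filterByExpr (minimum count 10, minimum total 15). PexRAP-AKO was compared with Control by edgeR's quasi-likelihood test (edgeR 4.0.16, R 4.3.3), with Benjamini-Hochberg adjustment over 14913 genes and a threshold of 0.05. Intervals cover 95%. CPM are counts per 1000000 of the TMM-scaled library size, and log2 CPM used a prior count of 2. Single values had exact two-sided permutation tests (smallest p 0.00794), and correlations of log2 CPM had 100000 permutations. Alternatives covered scaling, filters, DESeq2 1.42.0, limma 3.58.1, marker scores in the fit, a block for replicate number and libraries left out. In counts simulated for this comparison over 14913 genes, a small random subset of genes was changed. Of these, 61.2% of 1.5-fold and 74.6% of 2-fold changes were recovered. Counts were drawn for each gene apart, without variation shared between genes, and changes below 1.5-fold were not simulated. Every pair of libraries within a group differed by more than sampling noise (lowest chi-square per degree of freedom 7.75). P-values measure the spread between these samples.

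The 10 genes, the 10 pathway lists and the 8 marker lists were chosen with earlier results of these data known; 231 of 238 listed symbols were found. Named genes are the 10, Dhrs7b, the 3 other genes of smallest p per pathway list, any called list gene, and the 5 genes most correlated with Hspa5 and with Asns.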

Additional observations from a re-analysis of the deposited data

Results flagged for a closer look

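Of 122 groups of 5 values, 6 held a library far from the other 4, where chance gives about 1 in 20, or 6.1. Atf5 was high in PexRAP-AKO replicate 2 (6.38 log2 CPM, the others 6.15 to 6.19) and low in Control replicate 5 (6.25, the others 6.36 to 6.38). The adipocyte score was low in Control replicate 5 (10.79, the others 11.07 to 11.15). The skeletal muscle score was low in PexRAP-AKO replicate 2 (0.0896, the others 2.34 to 3.25). The T cell score was high in PexRAP-AKO replicate 6 (3.50, the others 0.55 to 1.34), and the plasma and B cell score in Control replicate 8 (2.59, the others 0.41 to 0.74). None of the 10 stress response genes had such a library: Atf3 in Control formed a high pair rather than a single high value.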

How the results depend on the processing

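Of the 10 genes, 0 were called under each of 25 alternatives (DESeq2 gave no adjusted p for Atf3 and Trib3), and 231 of their 250 fold changes kept their sign. Among the 25, the threshold of 0.1 reuses the main fit, so its fold changes keep their sign by construction. The log2 fold changes that reversed were those of Atf3 (0.25 with sample quality weights, 0.28 with the immediate early score, -0.36 to 0.18 with 1 library left out), Atf4 (-0.051 under total counts, -0.0079 with the immediate early score, -0.033 to 0.075 with 1 library left out) and Ddit3 (0.023 with the skeletal muscle score, 0.082 without PexRAP-AKO 6 and Control 8, -0.15 to 0.062 with 1 library left out). Hsp90b1 was -0.0085 under total counts and -0.0077 to 0.11 with 1 library left out, and Trib3 was 0.10 with the brown adipocyte score. Atf3 kept its sign with that score but was at -0.65, its lowest value over the 25. Total counts moved the median of all genes by -0.07. List medians were then -0.068 for ER chaperones, -0.083 for ER-associated degradation and -0.13 for sensors and transcription factors. They were -0.011 for eIF2 genes, -0.061 for amino acid genes and -0.056 for synthetases. The amino acid median was also -0.060 with the immediate early score, -0.069 without PexRAP-AKO 1 and -0.074 without Control 2. Iars2 was -0.012 under total counts. Mfn2 was -0.028 there, -0.013 with the skeletal muscle score, -0.0093 without PexRAP-AKO 6 and Control 8, and -0.0021 to 0.082 with 1 library left out.

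Over all genes, 15 were called. There were 26 without the filter, 439 in DESeq2 (309 higher, 130 lower), 109 with quality weights, 7 with the brown adipocyte score, 6 with the skeletal muscle score, 24 with the immediate early score, 5 without PexRAP-AKO 6 and Control 8, 98 at an adjusted p of 0.1, and 3 to 58 with 1 library left out (3 without Control 8, 58 without PexRAP-AKO 1). The causes were not tested. Creb3l2, Eif2s1, Psph, Aars and Clpp passed under 1 alternative each, DESeq2, and their highest adjusted p over the 25 were 0.544, 0.402, 0.508, 0.569 and 0.515. Replicate numbers 2, 3 and 5 occur in both groups, but the labels state no relation between them, so they were not taken as pairs. Deviations of same-numbered libraries correlated at -0.02, -0.08 and 0.36. No differently numbered libraries were set beside them, so these values cannot settle whether the mice were paired. With the replicate block on the 6 same-numbered libraries 3 genes were called, and 2 without it. Ddit3 was 0.11 in both of these fits, and Mfn2 -0.024 in both.

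Score differences reversed for macrophages (-0.031 under total counts, -0.18 to 0.22 with 1 library left out) and epithelium (-0.16 to 0.33). They spanned 0.39 to 1.13 for T cells and -0.34 to -0.20 for endothelium, both reaching an adjusted exact permutation p of 0.0397 without PexRAP-AKO 2. Herpud1 with Hspa5 had r = 0.15, and -0.59 without the 2 farthest libraries. Trib3 (32 to 114 counts per library) and Atf3 (35 to 261) had the lowest counts among the 10. Atf3 had the widest interval, and the part of depth in it was not tested.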
